A study of Mus musculus with 12 samples.

Results

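The expression of 9 genes for calcium release and calcium pumping in Purkinje cells was followed in mouse cerebellum, and all 9 had a row among the 7667 genes of the deposited table. The genes were chosen by name: Plcb4 and Homer3 downstream of metabotropic glutamate receptors, Itpr1 and its binding partner Car8, the IP3-metabolising enzymes Itpka and Inpp5a, and the calcium pumps Atp2a2, Atp2a3 and Atp2b2. The study compared fxSCA7 92Q mice, which carry an Atxn7 repeat of 92 CAG and model spinocerebellar ataxia type 7, with wild-type littermates whose repeat was of normal length. Cerebella were taken at 12 or 29 weeks. For each of the 4 conditions 3 libraries were made, every one from the pooled total RNA of 3 mice. No source used here states the promoter behind the expanded repeat, the strain or the sex of the animals, and Atxn7 itself is not analysed here.

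In a Purkinje cell, glutamate from parallel fibres activates metabotropic receptors, whose signal acts through a Gq protein on phospholipase C beta. The enzyme cleaves the membrane lipid PIP2 into diacylglycerol and IP3, and IP3 opens its receptor on the endoplasmic reticulum, so that stored calcium enters the cytosol. Kinases and phosphatases of IP3 end the signal, pumps of the SERCA family return calcium to the store, and pumps of the PMCA family move it out of the cell. This route is known for its part in synaptic plasticity and motor learning in the cerebellum, and mutations in several of its genes cause ataxia.

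The table holds 1 value per gene and condition, the authors' combination of the 3 libraries. Each value is a normalized score rounded to a whole number, with no stated unit, and the depth behind it is unknown. There is therefore no replicate error and no test, and "lower" and "higher" describe these 4 values alone. A log2 ratio was computed after adding 1 to both scores, and the range that rounding alone leaves is given in place of an error. Scores are compared here between conditions and not between genes. The 4 columns had a median of 22 each. The pools differed in other respects too: Xist was 66 and 63 in wild type at 12 and 29 weeks and 30 and 25 in 92Q. The Y-linked Eif2s3y was 0 and 6 in wild type and 12 and 15 in 92Q, and Ddx3y was 0 and 5 against 9 and 11, so transcripts that differ between the sexes differed between the pools. Ttr, the main transcript of the choroid plexus, was 336 and 445 in wild type and 6 and 1403 in 92Q. The number in the title of 1 of the 3 libraries of 92Q at 29 weeks lies apart from the other 29-week libraries. The part of these differences in the results below was not tested.

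All 9 genes were lowest in 92Q at 29 weeks, an order that 17.1% of all genes showed. At that age the 92Q score was between 57.1% and 86.8% of the wild-type score, and 6 of the 9 genes were at least 1.5-fold lower: Itpr1, Car8, Itpka, Inpp5a, Homer3 and Atp2a3. In the same comparison 0.73% of 7666 genes were at least 1.5-fold lower, and 26.1% were lower at any size. The members' median log2 ratio was -0.62, beside a median of 0.00 over all genes, whose central 95% lay between -0.29 and 0.29. At 12 weeks the genotype ratios were smaller, with a median of -0.22 and no gene at 1.5-fold. The condition columns are shared between these comparisons, so a value that is unusual in 1 condition enters several of them.

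**Figure D1:**
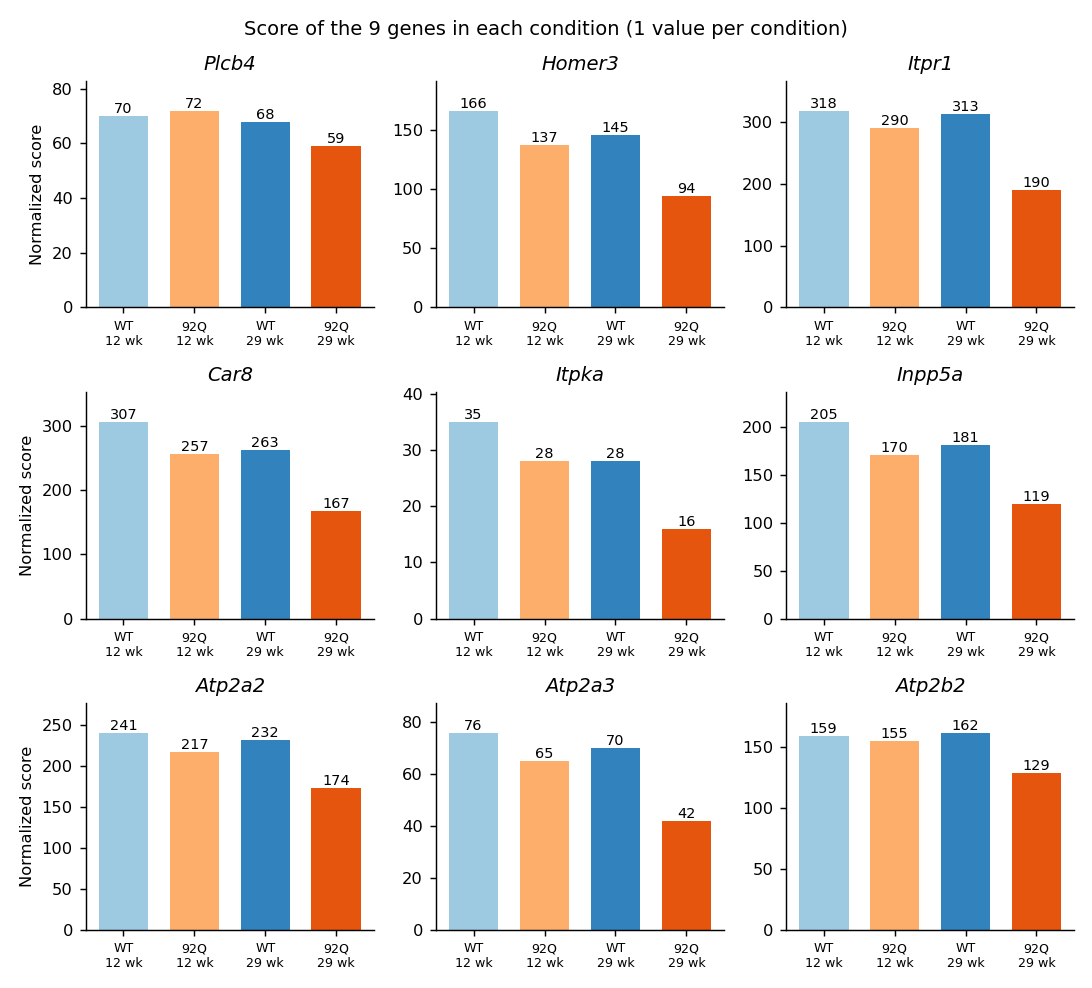
Normalized score (vertical axes, from 0, a separate scale for each gene) of the 9 genes in wild type (WT) and 92Q at 12 and 29 weeks (wk); each bar is the authors' single value for a condition. The bar of 92Q at 29 weeks is the shortest in all 9 panels, from 16 for Itpka to 190 for Itpr1.

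The sequence before the start sites of the genes was searched for short motifs, and any part of it in their scores was not tested. RefSeq start sites on GRCm38.p6, the assembly of mm10, were found for 6 of the 9 genes: Itpka, Inpp5a, Plcb4, Homer3, Atp2a3 and Atp2b2. Inpp5a and Plcb4 had 2 starts each and Atp2b2 had 3, and for every gene only the window of the start nearest to the annotated gene start was searched. The windows of the 3 genes past 1.5-fold whose 250 bases before the start held no annotated exon are shown, 5′ to 3′ on the strand of the gene, with GC boxes (GGGCGG or its reverse complement CCGCCC) in capitals. They lie at chr2:119742087-119742336, chr7:139388859-139389108 and chr11:72960919-72961168, all on the plus strand.
Itpka: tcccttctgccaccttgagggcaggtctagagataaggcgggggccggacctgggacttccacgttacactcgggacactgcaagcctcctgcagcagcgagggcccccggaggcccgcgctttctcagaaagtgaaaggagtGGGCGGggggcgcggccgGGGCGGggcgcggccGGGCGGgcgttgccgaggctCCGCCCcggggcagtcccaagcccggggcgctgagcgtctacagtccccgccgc
Inpp5a: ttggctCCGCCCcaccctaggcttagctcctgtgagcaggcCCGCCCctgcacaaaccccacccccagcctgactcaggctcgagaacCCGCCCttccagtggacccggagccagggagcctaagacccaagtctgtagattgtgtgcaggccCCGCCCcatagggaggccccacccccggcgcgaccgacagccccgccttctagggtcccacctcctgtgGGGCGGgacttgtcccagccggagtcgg
Atp2a3: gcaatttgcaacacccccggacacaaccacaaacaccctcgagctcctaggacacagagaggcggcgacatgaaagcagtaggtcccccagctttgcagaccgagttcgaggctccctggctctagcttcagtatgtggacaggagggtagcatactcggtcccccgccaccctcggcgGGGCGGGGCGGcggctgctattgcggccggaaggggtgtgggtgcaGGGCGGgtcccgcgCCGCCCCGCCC

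The GC box, a site known to bind Sp-family factors, occurred 4 times in the window of Itpka and 5 times each in those of Inpp5a and Atp2a3, overlapping matches and both strands counted. The RefSeq table has 32851 such windows, of which 32.7% held 1 or more and 4.09% held 4 or more. Homer3 had 4 and Atp2b2 had 1, and the highest count, 7, was in Plcb4, the member with the smallest genotype difference at 29 weeks. The windows of Homer3, Plcb4 and Atp2b2 overlapped an annotated exon. Their starts lay 172, 536 and 533 bases from the annotated gene start. The 6 windows were rich in G and C, from 66.8% for Atp2a3 to 85.2% for Plcb4, against a median of 52.4% over all windows. Motif shares among windows of similar G and C content were not computed. The half-site AGGTCA of nuclear receptors, both strands counted, was found once, in Homer3, and in 14.0% of all windows. TAGGTCA, which contains it and is bound by ROR-alpha, a regulator of Purkinje cell genes, was found in none of the 6 windows searched and in 2.23% of all windows. The CCAAT box was in none of these 6 windows and in 33.8% of all windows. Neither the TATA box TATAAA (12.4% of all windows) nor the E-box CACGTG (6.02%) was found in any of the 6 windows. A match or its absence describes these letters in this window alone.

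Signalling between the receptor and the store was represented by Plcb4 and Homer3. Plcb4, the phospholipase C isoform that couples to these receptors in many Purkinje cells, was 70 in wild type and 72 in 92Q at 12 weeks, and 68 in wild type and 59 in 92Q at 29 weeks. Its first 3 values lay close together and the fourth lay below them. It was the only member above wild type at 12 weeks (log2 ratio 0.04), and it had the smallest difference of the 9 at 29 weeks (-0.20, rounding range -0.22 to -0.18), inside the central 95% of all genes. Homer3, a postsynaptic scaffold that ties metabotropic receptors to the IP3 receptor, was 166 and 137 at 12 weeks and 145 and 94 at 29 weeks in wild type and 92Q. Its 92Q value was the lower one at both ages (-0.28 and -0.62), and the 12-week 92Q score lay under the 29-week wild-type score. The 3′ end of Homer3 overlaps that of Ddx49, on the opposite strand, by 1496 bases, and whether reads were counted by strand is unknown. Ddx49 was 13 in each condition.

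The receptor itself had one of the steepest differences. Itpr1, the main IP3 receptor of Purkinje cells, was 318 in wild type and 290 in 92Q at 12 weeks, and 313 in wild type and 190 in 92Q at 29 weeks. Wild type was nearly level with age, and the 29-week 92Q score was 60.7% of wild type (-0.72, rounding range -0.72 to -0.71). At 12 weeks the ratio was -0.13, a value that 8.25% of genes were at or below, and at 29 weeks 0.378% were. Car8, a carbonic anhydrase relative without enzyme activity that binds the IP3 receptor and lowers its affinity for IP3, was 307 and 257 at 12 weeks and 263 and 167 at 29 weeks. In wild type its score was lower at 29 weeks than at 12 by more than that of Itpr1 (-0.22 against -0.02), and its 12-week ratio was larger than that of Itpr1 (-0.26). At 29 weeks its 92Q score was 63.5% of wild type (-0.65). Itpr1 lies on chromosome 6 at 108213096 to 108551109 on the plus strand and Car8 on chromosome 4 at 8143362 to 8239041 on the minus strand (mm10, GENCODE M21, whole protein-coding genes). In the same annotation Plcb4 lies on chromosome 2 at 135659011 to 136014593 and Homer3 on chromosome 8 at 70282827 to 70294361, both on the plus strand.

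Both IP3-metabolising enzymes among the 9 genes were lower in 92Q. Itpka, the kinase that adds a phosphate to IP3 and whose window held 4 GC boxes, was 35 and 28 at 12 weeks and 28 and 16 at 29 weeks in wild type and 92Q. It had the lowest ratio of the 9 genes at both ages (-0.31 and -0.77), and being the member with the lowest scores it also had the widest rounding range at 29 weeks, -0.84 to -0.70. Inpp5a, a phosphatase that removes a phosphate from IP3, was 205 and 170 at 12 weeks and 181 and 119 at 29 weeks. Its ratios were -0.27 and -0.60, the latter close to the 1.5-fold threshold. Its 3′ end overlaps that of Nkx6-2 on the opposite strand by 277 bases, and Nkx6-2 was between 8 and 11 in the 4 conditions. The promoter window of Inpp5a, at the other end of the gene, held 5 GC boxes, as did that of Atp2a3. Itpka lies on chromosome 2 at 119742337 to 119751263 and Inpp5a on chromosome 7 at 139389109 to 139579652, both on the plus strand.

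The pumps covered a range of ratios. Atp2a3, the SERCA3 pump, was 76 and 65 at 12 weeks and 70 and 42 at 29 weeks, where 92Q stood at 60.0% of wild type (-0.72). Atp2a2, the SERCA2 pump found in most cell types, was 241 and 217 at 12 weeks and 232 and 174 at 29 weeks, and its 29-week ratio was -0.41. Both SERCA genes were lowest in the same condition, with the score of Atp2a2 in 92Q at 75% of wild type there. Atp2b2, the PMCA2 pump of the plasma membrane, was 159 and 155 at 12 weeks and 162 and 129 at 29 weeks. Its ratio was -0.04 at 12 weeks, which became 0.01 after quantile normalization, and -0.33 at 29 weeks. Plcb4, Atp2a2 and Atp2b2 were thus the members under 1.5-fold at 29 weeks, and in both Atp2a2 and Atp2b2 the difference lay outside the central 95% of all genes. Atp2a2 lies on chromosome 5 at 122453513 to 122502225 and Atp2b2 on chromosome 6 at 113743831 to 114042613, both on the minus strand, and Atp2a3 on chromosome 11 at 72961169 to 72993044 on the plus strand.

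**Figure D2:**
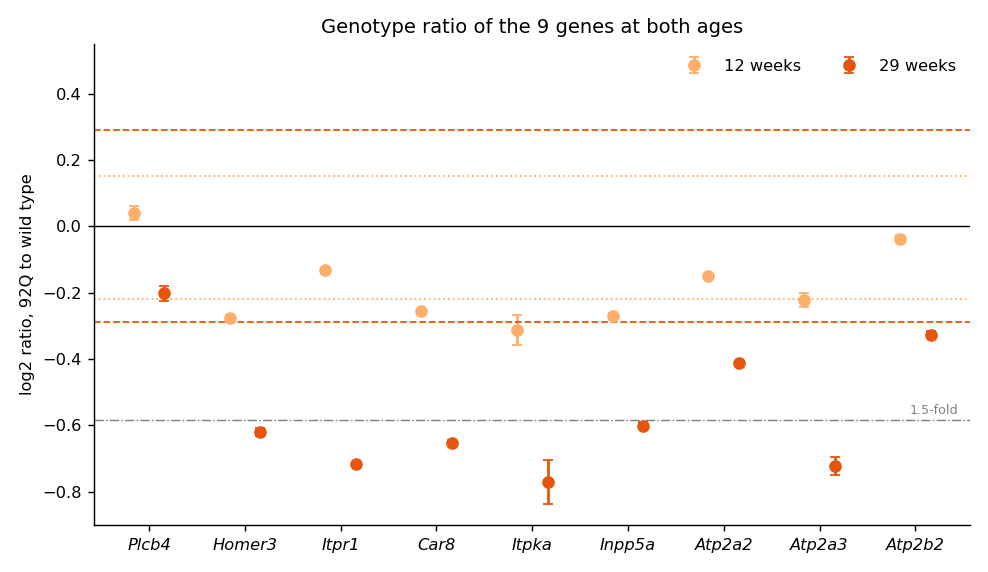
Log2 ratio of 92Q to wild type (vertical axis) for each of the 9 genes at 12 weeks (light) and 29 weeks (dark), with bars for the range that rounding leaves; dotted (12 weeks) and dashed (29 weeks) lines bound the central 95% of all genes and the grey line marks a 1.5-fold lower score. Every gene's 29-week point lies below its 12-week point, and 6 of the 9 lie below the grey line.

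At 12 weeks 8 of the 9 genes were lower in 92Q, where 36.7% of 7660 genes were, and the exception was Plcb4. None reached 1.5-fold, a difference that 0.17% of genes had in the lower direction. Counted at 1.2-fold, Itpka, Homer3 and Inpp5a were lower, 3 of the 9 genes against 1.54% of all genes, and Car8 (-0.26) lay just short of it. Homer3 and Inpp5a fell short of 1.2-fold with upper quartile scaling (-0.241 and -0.234) and with quantile normalization (-0.248 and -0.224). At 29 weeks 8 of the 9 genes were at least 1.2-fold lower, against 3.12% of all genes, and Plcb4 was not.

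The genotype ratio was more negative at 29 than at 12 weeks in all 9 genes, as it was in 36.0% of 7659 genes. The difference between the log2 ratios had a median of -0.34, and it was -0.58 for Itpr1, -0.50 for Atp2a3, -0.46 for Itpka and -0.40 for Car8. It was smallest for Plcb4 (-0.24) and Atp2a2 (-0.26). At a size of 1.2-fold it was lower in 7 of the 9 genes and in 2.4% of all genes, and at 1.5-fold in none of the 9 and in 0.261% of all genes. Plcb4 and Atp2a2 fell short of 1.2-fold, but both passed it under each other scaling tried. Plcb4 then lay between -0.276 and -0.270 and Atp2a2 between -0.323 and -0.290. Itpr1 stood out among the 6 genes past 1.5-fold at 29 weeks in having the 12-week ratio nearest to 0 and the third lowest 29-week ratio. Its difference was just under the 1.5-fold size and passed it under each other scaling tried, down to -0.62 with upper quartile scaling. No error is available for a difference of 4 single values.

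Seen by age within a genotype, the 9 genes had ratios nearer to 0 in wild type than in 92Q. In wild type 8 of the 9 were lower at 29 weeks, as were 45.9% of 7663 genes. The median log2 ratio of 29 to 12 weeks was -0.12, no member was 1.5-fold lower (0.144% of all genes were), and Itpka (-0.31) alone was 1.2-fold lower, against 3.81% of all genes. Itpr1 (-0.02) and Atp2a2 (-0.05) were near 0, and both became slightly positive after quantile normalization (0.03 and 0.02), while Atp2b2 was 0.03. In 92Q all 9 genes were lower at 29 weeks, against 35.4% of all genes. The median was -0.54, and Itpka (-0.77), Car8 (-0.62), Atp2a3 (-0.62) and Itpr1 (-0.61) were at least 1.5-fold lower, 4 of the 9 genes against 0.483% of 7667. All 9 genes were at least 1.2-fold lower with age in 92Q, against 4.0% of all genes. Atp2b2 lay exactly at that threshold and fell short of it with a pseudocount of 5 (-0.256) and after quantile normalization (-0.240). Wild type at 12 weeks was the highest of the 4 conditions for 7 genes, an order found in 21.7% of all genes, and the exceptions were Plcb4 and Atp2b2. The 12-week 92Q score lay below the 29-week wild-type score for 7 genes (30.1% of all genes), was equal to it for Itpka at 28, and was above it for Plcb4.

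Among themselves the 9 genes fell along a range of patterns. Each gene's 4 values, on the log2(score + 1) scale, were centred at their own mean, and 2 genes were compared by the root mean square difference between the 4 centred values. The closest pair was Homer3 and Inpp5a, at 0.013, then Car8 and Homer3, at 0.030. The widest difference, 0.303, was between Itpka and Plcb4. Plcb4 was closest to Atp2b2 (0.056), and Atp2b2 to Plcb4 and then Atp2a2 (0.061). The highest score was 2.19 times the lowest for Itpka and 1.22 times for Plcb4.

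By the same measure, over the 4 conditions, each gene was set beside 4251 other genes with a mean score of at least 20. For Inpp5a and for Homer3 the closest were Icmt, which methylates prenylated proteins (0.0096 and 0.0073), and Slc1a6, the glutamate transporter of Purkinje cells (0.012 and 0.0085), and the third were Garnl3 and Tuba8, a tubulin. For Car8 they included the calcium buffer Calb1 (0.021) and Tuba8 (0.030). For Itpr1 they were Doc2b, a calcium sensor of vesicle release (0.022), the carbonic anhydrase Car7 and Ppp1r16b, and for Atp2a3 Car7 (0.019), the G protein regulator Rgs8 and the kinase Sbk1. Itpka had Cep76 (0.027), Stk17b and Pcp4. The genes with smaller differences had other neighbours. Plcb4 was closest to Gm996 (0.0028), the G protein regulator Rgs7 (0.0089) and Neurod1, a transcription factor of granule neurons (0.010). Atp2a2 had Igfbp5 (0.012), Baiap2 and Ttll5, and Atp2b2 had Wiz (0.015), Gad1, which makes GABA, and Inpp4a. For the mean pattern of the 6 genes past 1.5-fold, the 10 closest included Car7 (0.025), Tuba8, Slc1a6, Icmt, Rgs8, Calb1, Sbk1, Arhgef33 and Doc2b (0.046). Of the 10, drawn from the 4251 candidates, 6 stand on the list of 18 Purkinje cell markers described next. The 6 averaged genes were picked by ratios that enter the same 4 values. The marker list was chosen with earlier results of these data known. The overlap is therefore no independent evidence of the cell type behind the pattern. Likeness of patterns rests on 4 values and is a description.

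Purkinje cell markers were lower in the same conditions as the 9 genes. At 12 weeks all 18 were lower in 92Q (median log2 ratio -0.25), 7 of them by 1.2-fold, against 36.7% and 1.54% of all genes. At 29 weeks 17 were lower (median -0.60), 10 of them by 1.5-fold, against 26.1% and 0.73% of all genes, with Stmn4 the exception. Their summed score was 8006 in wild type and 6382 in 92Q at 12 weeks, and 6794 and 4513 at 29 weeks. The medians of the 9 genes, -0.22 and -0.62, lay close to those of the markers, a list chosen with earlier results of these data known. Bulk tissue cannot tell fewer cells of a type from less RNA per cell. The 16 granule neuron markers had medians of 0.07 and -0.10, and none of them reached 1.2-fold at either age. The 9 interneuron markers, several of which Purkinje cells express as well, had medians of -0.07 and -0.21. Of the 9, 3 were lower by 1.2-fold at each age, against 1.54% and 3.12% of all genes. The lowest ratios on this list were those of Eomes, a marker of unipolar brush cells with low scores. It was 16 and 11 at 12 weeks (-0.50) and 19 and 6 at 29 weeks (-1.51) in wild type and 92Q.

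Each marker list of non-neuronal cells had a higher sum in 92Q at 29 weeks. Microglia markers were higher in 92Q in 10 of 10 (median 1.01, summed score 387 against 186), and oligodendrocyte markers in 8 of 10 (median 0.17, 4356 against 4076). Over all genes 3791 of 7666 were higher at that age. At 1.2-fold, 10 microglia and 4 oligodendrocyte markers were higher, against 290 of all genes. The 12 astrocyte and Bergmann glia markers had a median of 0.08 and sums of 2058 and 1904 in 92Q and wild type. Most of that difference lay in Gfap, the filament protein of astrocytes, at 235 against 95, while Gdf10, a Bergmann glia marker, was lower at 106 against 130 (-0.29). The 4 endothelial markers had sums of 105 and 96. Choroid plexus markers summed to 453 in wild type and 65 in 92Q at 12 weeks, and to 576 and 1699 at 29 weeks. In this list Kl, a marker of choroid plexus, was listed at 0 in 92Q at 12 weeks, and no other marker of any list was at 0 in any condition. The part of these cell types in the values of the 9 genes was not tested.

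**Figure D3:**
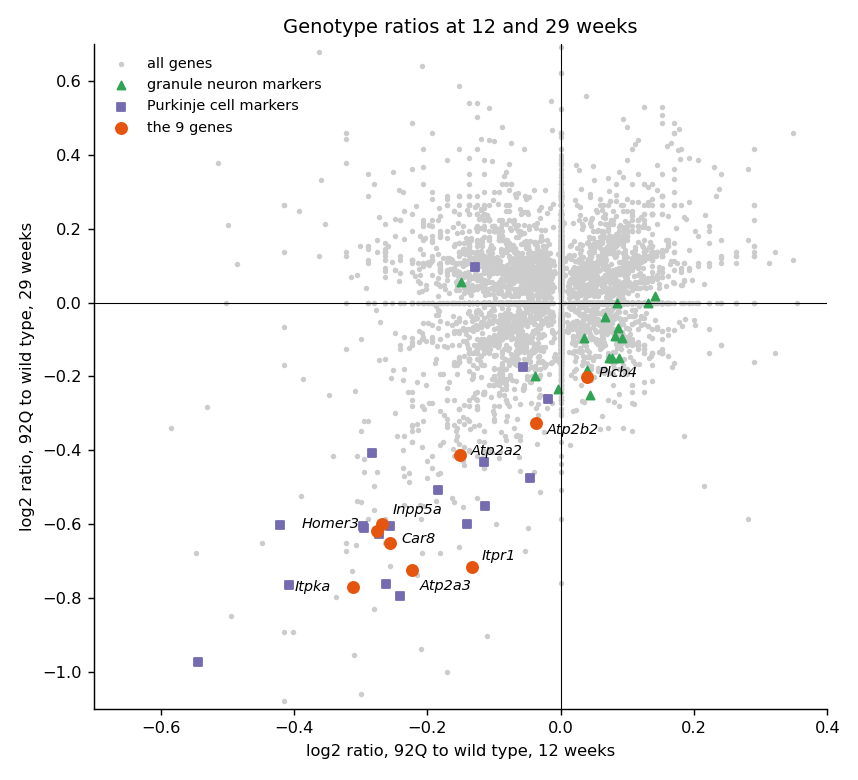
Log2 ratio of 92Q to wild type at 12 weeks (horizontal axis) and 29 weeks (vertical axis) for all genes (grey), Purkinje cell markers (squares), granule neuron markers (triangles) and the 9 genes (labelled circles); 39 of 7659 genes lie outside the plotted range. Itpr1, Car8, Itpka, Inpp5a, Homer3 and Atp2a3 lie among the squares, and Plcb4 lies among the triangles.

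The rest of the pathway was described by 78 measured genes of 97 listed by role. In 92Q at 29 weeks 5 of the 78 were at least 1.5-fold lower, against 0.73% of all genes, and none was higher by that much, against 0.535%. Of the 78, 12 were at least 1.2-fold lower (3.12% of all genes), and the median log2 ratio was 0.00. At 12 weeks none was 1.5-fold lower and 4 were 1.2-fold lower, against 0.17% and 1.54% of all genes. The 12 genes fell in 6 of the 11 roles. In the receptor and scaffold group all 6 measured genes were lower at 29 weeks (median -0.41). Grid2ip, a scaffold of parallel fibre synapses, was 30 and 24 at 12 weeks and 30 and 15 at 29 weeks (29-week ratio -0.95), the lowest ratio of the 78. The postsynaptic scaffold Shank2 was 58 against 36 (-0.67) in wild type and 92Q at 29 weeks.

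Between the receptor and IP3 the differences were fewer. Of the 6 genes for G proteins and phospholipases, Plcb3, another phospholipase C beta, was 15 against 10 at 29 weeks (-0.54) and was the only one at 1.2-fold. Plcd4 (0.24) and Plcg1 (0.09), other phospholipases C, were slightly higher in 92Q, with scores of 10 to 15. The Gq subunit gene Gnaq was 75 against 71 (-0.08) and the related Gna11 55 against 57 (0.05). None of the 11 genes that supply PIP2 reached 1.2-fold at either age. In the branch that starts from diacylglycerol, 3 of 6 genes were at least 1.2-fold lower at 29 weeks. Among them were Dagla, which makes the endocannabinoid 2-AG, at 35 against 23 (-0.58) and the diacylglycerol kinase Dgkz at 194 against 132 (-0.55).

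On the store side most genes outside the 9 were close to wild type. None of the 5 measured partners and ryanodine receptors reached 1.2-fold at either age. The 7 calcium-binding proteins of the endoplasmic reticulum lumen had a median of 0.00 and none at 1.2-fold, and none of the 8 genes of mitochondrial uptake reached it. In inositol phosphate metabolism 1 of 12 was lower by 1.2-fold, the lipid phosphatase Inpp4a at 65 against 52 (-0.32). Among 5 store-refilling and TRPC genes 1 was lower by 1.2-fold. In the same group the store-operated channel gene Orai3 was 13 against 12 (-0.11) and Trpc1 was 12 in both genotypes. None of the 9 other pumps and exchangers reached 1.2-fold. Of the cytosolic buffers Calb1 was 356 against 233 (-0.61), Pvalb 734 against 580 (-0.34) and Calb2, which granule and unipolar brush cells express, 249 against 259 (0.06). Calb1 also stands on the list of Purkinje cell markers.

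**Figure D4:**
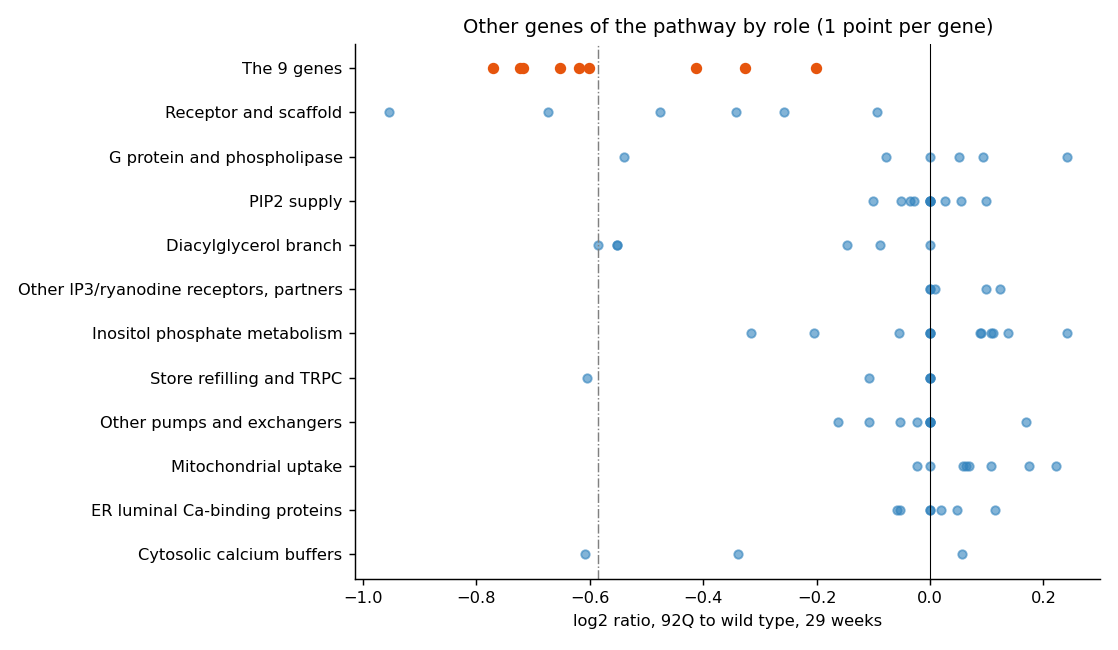
Log2 ratio of 92Q to wild type at 29 weeks (horizontal axis) for the 9 genes (top row) and the 78 other measured genes of the pathway by role, 1 point per gene; the grey line marks a 1.5-fold lower score. The 5 genes at or below it fall in 4 of the 11 roles, and the PIP2, mitochondrial and lumen rows lie close to 0.

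Measured relatives of Itpka, Car8, Inpp5a, Homer3, Atp2b2 and Plcb4 showed smaller differences at 29 weeks than these genes, with Plcb3 the exception. Itpr2 and Itpr3, the relatives of Itpr1, were not measured. Nor was Atp2a1, so the SERCA genes could be set only beside each other (-0.72 for Atp2a3, -0.41 for Atp2a2). Itpkb, the sister kinase of Itpka found in many cell types, was 29 and 28 at 12 weeks and 32 and 38 at 29 weeks in wild type and 92Q. It was thus higher in 92Q (0.24) where Itpka was lower (-0.77). The carbonic anhydrase relatives of Car8, Car10 at 85 against 87 and Car11 at 51 against 49, were within 0.06 of 0 at 29 weeks. Beside Inpp5a at -0.60, the other measured Inpp5 genes were between -0.20 for Inpp5j and 0.11 for Inpp5k, with Inpp5b at 0.00, Inpp5e at -0.16 and Inpp5f at -0.03. Homer1 was 15 against 14 (-0.09). Beside Atp2b2 at -0.33 the other PMCA genes were 0.00 for Atp2b1, -0.05 for Atp2b3 and -0.11 for Atp2b4. The phospholipases ran the other way, since Plcb4 (-0.20) lay between Plcb1, at 14 in both genotypes (0.00), and Plcb3 (-0.54). Plcb1, Plcb3, Homer1, Atp2b4 and Inpp5b had scores of 20 or less, where a change of 1 in the score moves the ratio most.

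The shorter table that the authors deposited has 99 genes, beside 7667 in the table of all genes. It held 6 of the 9 genes, Itpr1, Car8, Itpka, Inpp5a, Homer3 and Atp2a3. In the authors' deposited table all 4 of their values were those of the table of all genes. They are the 6 members past 1.5-fold at 29 weeks. How its genes were selected is unknown, and the selection came from these same libraries, so membership adds no independent support for their direction. The authors' deposited table also held 8 of the other 78 pathway genes, among them Shank2, Grid2ip, Plcb3, Dagla, Dgkz and Calb1. Of the 18 Purkinje cell markers it held 12, with Calb1 among those counted in both lists.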

How the data were processed

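Total RNA of mouse cerebellum was sequenced as single-end reads on an Illumina HiSeq instrument from TruSeq libraries, per the labels' protocols. The submitters' processing notes name Cuffdiff 1.3.0, Bowtie 0.12.7, SAMtools 0.1.12a and the build mm10, without saying what each did. The deposited score is a whole number per gene and condition for which no source used here states a unit, filter or normalization. Columns were matched to the 4 groups by the start of the sample titles. Of 7684 rows, 17 with a number for a name were left out. Every remaining gene reached 10 in 1 or more conditions. Ratios were log2((a + 1)/(b + 1)) where one or both conditions reached 5, and rounding ranges moved each score by 0.5. Differences were counted at 1.5-fold and 1.2-fold. The design allowed for limma if a value per library was found, and it was not. The members, gene lists and thresholds were chosen with earlier results of these data known. Text genes were the 9 members, their relatives, up to 3 per role by 29-week ratio where 1 passed 1.2-fold, and the nearest patterns. Gnaq, Gna11, Gfap, Gdf10 and Eomes were added after their values were seen. Some genes the rule names are not reported here, though list counts include them. Positions came from GENCODE M21 and promoters from RefSeq. The ratio step was tested on simulated data. Python 3.11.15, pandas 2.3.3 and numpy 2.4.6 were used. Alternatives were pseudocounts, scalings, minimum scores and the fold threshold. The planned search of protein sequences was not run.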

Additional observations from a re-analysis of the deposited data

Results flagged for a closer look

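Of the 9 genes, Plcb4 was the one whose genotype ratio had a different sign at the 2 ages, beyond what rounding allows. It was 72 in 92Q against 70 in wild type at 12 weeks (log2 ratio 0.04) and 59 against 68 at 29 weeks (-0.20), a difference of -0.24. The calcium buffer gene Calb2 had the opposite order, at 293 against 325 at 12 weeks (-0.15) and 259 against 249 at 29 weeks (0.06), a difference of 0.21. Each condition has a single value, so neither difference was tested.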

How the results depend on the processing

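At 29 weeks all 9 genes were lower in 92Q and the same count of 6 was at least 1.5-fold lower under every pseudocount, scaling and minimum tried, and 8 were lower counted at 1.2-fold. Inpp5a was exactly at 1.5-fold with a pseudocount of 5. The members' median at 29 weeks was -0.60 with that pseudocount, -0.65 with median-of-ratios scaling and -0.64 with quantile normalization, each beyond what rounding allows. At 12 weeks it was -0.19 with upper quartile scaling, and the count of 0 became 3 at 1.2-fold. Of those 3, Homer3 and Inpp5a fell short of 1.2-fold with upper quartile scaling and with quantile normalization. With age in wild type the median was -0.083 with upper quartile scaling and -0.076 with quantile normalization, and the count of 0 became 1 at 1.2-fold. With age in 92Q it was -0.52 with a pseudocount of 5 and -0.51 with quantile normalization. The count of 4 was 3 in both of these, without Atp2a3 in the first and without Itpr1 in the second, and 9 at 1.2-fold, with Atp2b2 exactly at that threshold. The median difference of genotype ratios between ages was -0.37 with median-of-ratios, -0.38 with upper quartile scaling and -0.39 with quantile normalization. The difference for Itpr1 passed 1.5-fold with median-of-ratios (-0.61), upper quartile (-0.62) and quantile normalization (-0.60) and with a pseudocount of 0.1 (-0.59). Signs changed for Atp2b2 at 12 weeks (0.01) and Atp2a2 (0.02) with age in wild type under quantile normalization, and for Itpr1 with age in wild type under upper quartile scaling (0.01) and quantile normalization (0.03). The causes were not tested. No paired analysis was possible because the deposited columns combine the libraries of a condition, and leaving out a library was not run for the same reason. The unknown depth leaves no error for any score.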
